A study of Homo sapiens with 8 samples.

Results

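RMRP, RPPH1, VTRNA1-1, VTRNA1-2 and VTRNA1-3 are short RNAs made by RNA polymerase III that do not code for protein. RMRP is the RNA of RNase MRP, RPPH1 is the RNA of RNase P, and the others are vault RNAs. They were chosen by name, with earlier results of these data known. Every row of the deposited transcript table whose RefSeq identifier belongs to 1 of these 5 genes was taken. Each gene has 1 row (NR_003051, NR_002312, NR_026703, NR_026704 and NR_026705, in the order above), so that 5 of the 53216 rows were described.

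The RNA came from HEK293T cells, a human embryonic kidney line that carries the SV40 large T antigen, grown without treatment. Of the 8 libraries, 2 held total RNA of wild-type (WT) cells depleted of ribosomal RNA with RiboMinus and made with a TruSeq kit, 3 held RNA of WT cells taken through NAD-Capture, and 3 held RNA that had been captured in the same way from cells with the label DXO-KO, a DXO knockout (called captured WT libraries and libraries labelled DXO-KO where values are listed); both NAD-Capture groups were made with a SMARTer low-input kit. In NAD-Capture an ADP-ribosyl cyclase swaps the nicotinamide of an NAD cap for an alkyne, biotin is clicked onto it, and streptavidin beads pull the RNA down. DXO is an enzyme that removes NAD caps, and the series title names that activity. RNA was taken from whole cultures, so a lower level in every cell and a loss from some of them cannot be told apart. How the DXO edit was made, whether the line is 1 clone and whether replicates are separate cultures are not given in the sources used here, so p-values measure the spread between these libraries, which may be technical. Capture and kit changed together between RiboMinus and NAD-Capture, so their parts in a difference cannot be told apart; libraries of the control reaction without cyclase were not analysed here.

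The RNAs of RNase MRP and RNase P are the RNA cores of related enzymes that share most of their protein subunits. RNase P cuts the leader from precursor tRNAs and its RNA is the catalyst; RNase MRP cuts precursor ribosomal RNA, and mutations of RMRP cause cartilage-hair hypoplasia. Both genes are read by RNA polymerase III from promoters that lie upstream of the transcribed part. Vault RNAs are named for the vault, a large hollow particle of the cytoplasm built mainly of the major vault protein MVP, and are transcribed from promoter boxes inside the gene, as tRNAs are. RNA polymerase III transcripts usually begin with a triphosphate and have no poly(A) tail, and they end at a run of T in the gene.

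The vault RNA sequences are shown first, because the 3 genes share their start and a later motif, marked here, and differ between and after these. They are the GENCODE release 29 transcripts, 5′ to 3′, written as DNA. Capitals mark the start that all 3 share and the 9-base motif gttcgannc, which resembles the promoter B box of tRNA genes.
VTRNA1-1: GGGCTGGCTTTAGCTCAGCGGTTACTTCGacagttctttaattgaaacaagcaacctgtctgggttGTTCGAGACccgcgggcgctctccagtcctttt
VTRNA1-2: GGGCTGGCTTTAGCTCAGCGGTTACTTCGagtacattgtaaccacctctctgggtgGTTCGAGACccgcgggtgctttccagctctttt
VTRNA1-3: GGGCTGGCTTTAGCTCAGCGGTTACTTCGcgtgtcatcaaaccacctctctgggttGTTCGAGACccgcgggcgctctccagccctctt
The shared start is 29 nt long. The motif begins at position 67 of VTRNA1-1 and at position 57 of the other two, and was searched on both strands; it was on the sense strand of all 3 vault RNAs and on neither strand of RMRP or RPPH1. Of 4844 GENCODE transcripts of 80 to 130 nt, 11 (0.227%) held it on the sense strand and 3 (0.0619%) on the other. In a global alignment VTRNA1-2 and VTRNA1-3 matched at 87.8% of positions, VTRNA1-1 and VTRNA1-3 at 83.0%, and VTRNA1-1 and VTRNA1-2 at 81.8%. VTRNA1-1 and VTRNA1-2 end in 4 T, and VTRNA1-3 ends in tctt. How the authors' counting treated a fragment that fits more than 1 vault RNA is not given in the sources used here, so the split between them is uncertain.

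RMRP and RPPH1 are shown because the highest levels described below are theirs. Neither shares the vault RNA start.
RMRP: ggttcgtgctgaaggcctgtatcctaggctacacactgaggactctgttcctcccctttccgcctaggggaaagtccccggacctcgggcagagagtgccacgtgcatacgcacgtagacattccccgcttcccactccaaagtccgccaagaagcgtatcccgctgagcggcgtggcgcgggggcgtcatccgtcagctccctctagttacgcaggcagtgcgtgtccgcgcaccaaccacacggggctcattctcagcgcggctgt
RPPH1 (positions 1 to 300): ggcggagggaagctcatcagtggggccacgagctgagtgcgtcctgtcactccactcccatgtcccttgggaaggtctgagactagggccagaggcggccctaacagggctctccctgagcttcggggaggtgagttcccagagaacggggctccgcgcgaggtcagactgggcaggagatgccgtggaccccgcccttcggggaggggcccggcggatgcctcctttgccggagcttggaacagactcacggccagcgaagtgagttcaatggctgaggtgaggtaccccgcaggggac
The GENCODE models are 268 nt (RMRP) and 333 nt (RPPH1), and the RefSeq models are 270 and 341 nt, so the printed ends are not those of the counted models. GC content was 63.1% in RMRP and 64.6% in RPPH1, against 52.5% in VTRNA1-1, 55.1% in VTRNA1-2 and 60.7% in VTRNA1-3.

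The values are FPKM as the authors deposited them, that is, fragments per kilobase of a transcript, set relative to the depth of the library. In this table an FPKM does not mean the same number of fragments at every length. For rows of 1500 to 6000 nt, low values fell on whole multiples of a step, and that step gave the depth of a library as an equivalent number of fragments. This was 10719055 and 8776020 in the 2 RiboMinus libraries, 192439, 165634 and 249580 in captured WT libraries, and 808175, 138349 and 80220 in those labelled DXO-KO. With 1 kb of effective length, 1 fragment was worth 0.0933 and 0.114 FPKM in the RiboMinus pair and 1.24 to 12.5 FPKM in the NAD-Capture libraries. At 88 nt, the length of VTRNA1-2 and VTRNA1-3, 1 fragment was worth 886 and 566 FPKM in RiboMinus and 2254 to 55903 FPKM in NAD-Capture. The level of DXO went against the label: it was 11.2 and 14.3 FPKM in RiboMinus, 33.2, 17.2 and 27.1 in captured WT libraries, and 128, 61.6 and 71.7 in those labelled DXO-KO, which are therefore named by their label throughout. A transcript level does not show whether the edited gene still makes protein. Of the markers of the line, VIM, KRT8 and NEFM were above 0 in every library, KRT18 was listed at 0 in replicate 3 labelled DXO-KO and PAX2 in replicate 2 labelled DXO-KO; the blood markers PTPRC and HBB were listed at 0 in every library and CD3E in all but replicate 1 labelled DXO-KO (0.930 FPKM), and the liver, muscle and fibroblast markers ALB, APOA1, MYH6, ACTA1, COL1A1 and COL1A2 stood between 0 and 14.2 FPKM.

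RMRP, the RNase MRP RNA, had the highest FPKM of any row in 6 of the 8 libraries. It stood at 66318 and 65676.5 FPKM in WT RiboMinus, at 231141, 357386 and 129994 in captured WT libraries, and at 114322, 401513 and 868551 in those labelled DXO-KO. All 6 NAD-Capture libraries lay above both RiboMinus libraries, and the 2 NAD-Capture groups overlapped, since the libraries labelled DXO-KO held both the lowest and the highest value of the 6. On the log2(FPKM + 1) scale the level was 16.01 ± 0.01 (SD, n = 2) in RiboMinus, 17.75 ± 0.73 (SD, n = 3) in WT NAD-Capture and 18.38 ± 1.48 (SD, n = 3) in the group labelled DXO-KO. The RiboMinus pair thus agreed closely, while the NAD-Capture replicates spread over several fold. In replicate 2 labelled DXO-KO the snoRNA SNORD87 was at the top of the table with 62.7% of the summed FPKM and RMRP ranked 3, and in replicate 3 labelled DXO-KO the snoRNA SNORD45A was at the top with 18.2% and RMRP ranked 2.

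RPPH1, the RNase P RNA, had a lower FPKM than RMRP in every library. The RPPH1 row is longer (341 against 270 nt), and 1 fragment is worth more FPKM on a shorter row. The order of the 2 RNAs in fragments is therefore not shown. The level of RPPH1 was 44439.7 and 46023 FPKM in WT RiboMinus, 133515, 208915 and 93714 in captured WT libraries, and 83601, 286102 and 454312 in those labelled DXO-KO. The order of the libraries within each NAD-Capture group was that of RMRP, and again every NAD-Capture library lay above RiboMinus while the NAD-Capture groups overlapped. On the log2 scale the level was 15.46 ± 0.04 (SD, n = 2) in RiboMinus, 17.07 ± 0.58 (SD, n = 3) in WT NAD-Capture and 17.76 ± 1.26 (SD, n = 3) in the group labelled DXO-KO. RPPH1 ranked between 2 and 4 in all libraries.

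**Figure D1:**
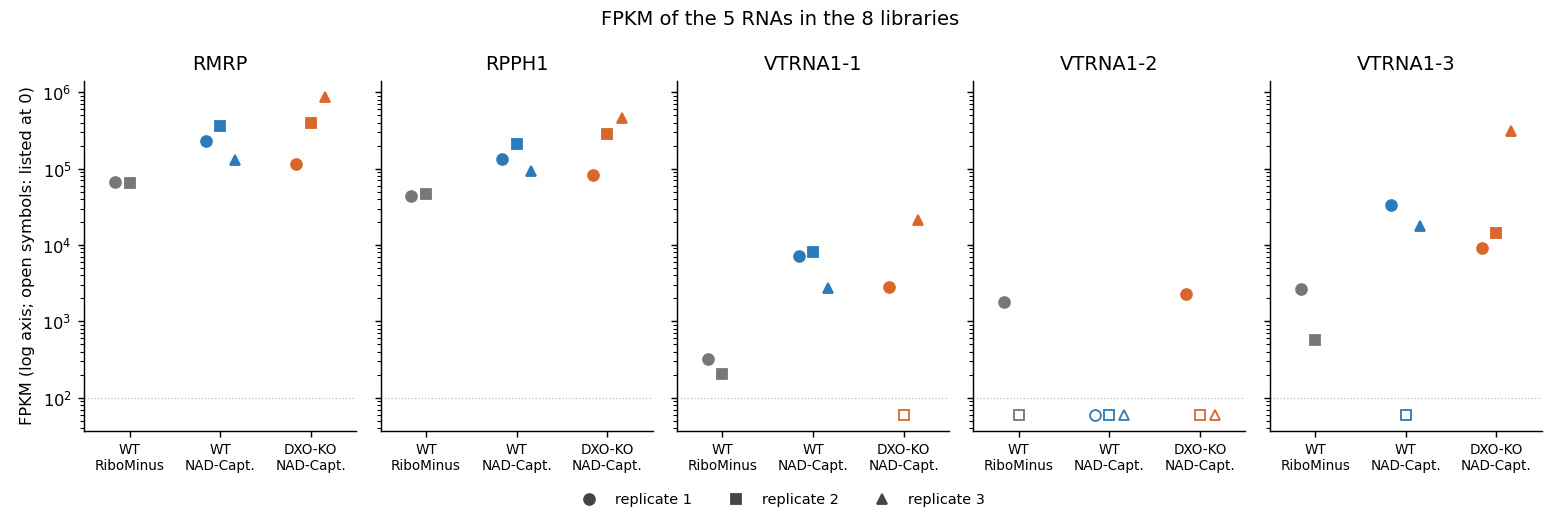
FPKM of the 5 RNAs on a log axis, 1 symbol per library, by group (symbol shape gives the replicate; open symbols are values listed at 0 and are drawn under the dotted line, off the scale). RMRP and RPPH1 lie at 44439.7 FPKM or higher in all 8 libraries, the vault RNAs lie below both within each library, with VTRNA1-3 at 307508 FPKM in replicate 3 labelled DXO-KO, and VTRNA1-2 is above 0 in 2 libraries.

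The number of fragments behind these 2 RNAs could be bounded from below. A scaRNA that is shorter than the member and listed above 0 holds at least 1 fragment, and 1 fragment is worth more FPKM on a shorter row. By this measure RMRP, against SCARNA6 of 266 nt, rested on at least 109 fragments in the library with the lowest bound (replicate 1 labelled DXO-KO) and at least 1020 in the one with the highest (WT NAD-Capture replicate 2). RPPH1, against the lower of SCARNA7 and SCARNA10 of 330 nt, rested on at least 103 to 923 fragments. Counting error was therefore small for RMRP and RPPH1 beside the spread between NAD-Capture replicates. In RiboMinus the bounds were 314 and 342 fragments for RMRP and 103 and 115 for RPPH1. The RiboMinus pair agreed closely, so these bounds do not show the same there.

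The vault RNAs rested on a handful of fragments. VTRNA1-1, known as a regulator of autophagy, was at 325 and 205 FPKM in RiboMinus, at 7111, 8203 and 2706 in captured WT libraries, and at 2832, 0 and 21296 in those labelled DXO-KO. Its FPKM was the same to every deposited digit as that of SNORD46, a snoRNA row of the same length of 98 nt, in 4 of the libraries, and 0.5 of it in RiboMinus replicate 2. The vault RNA rows were not left out of the short rows that set the value of 1 fragment. The whole numbers given for them are therefore estimates and not an independent check of that value. Read against the value of 1 fragment at 98 nt, these levels were 1 and 1 fragment in RiboMinus, 2, 2 and 1 in captured WT libraries, and 4, 0 and 1 in those labelled DXO-KO. The library with the highest FPKM of VTRNA1-1, replicate 3 labelled DXO-KO, thus held 1 fragment of it, while replicate 1 labelled DXO-KO held 4 fragments at 2832 FPKM.

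VTRNA1-2 was listed at 0 in 6 libraries. It stood at 1782 FPKM, or 2 fragments, in RiboMinus replicate 1 and at 2261 FPKM, or 1 fragment, in replicate 1 labelled DXO-KO. These were the deepest library of the series and the deepest of the NAD-Capture libraries. A count of 0 allows up to 3.69 fragments (upper end of the 95% Poisson interval), so a difference from the libraries at 0 was not detectable at this depth.

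VTRNA1-3 was the vault RNA with the highest values. It was at 2674 and 576 FPKM in RiboMinus, at 33217, 0 and 17880.2 in captured WT libraries, and at 9045, 14387 and 307508 in those labelled DXO-KO. In fragments this was 3 and 1, then 3, 0 and 2, then 4, 1 and either 5 or 6, because the last value lay at 5.50 times the FPKM of 1 fragment. The 307508 FPKM made VTRNA1-3 the fourth most abundant row of replicate 3 labelled DXO-KO, with 4.43% of the summed FPKM, on 5 or 6 fragments with a 95% Poisson interval of 1.62 to 13.1. Over all 8 libraries the estimates came to 12 fragments of VTRNA1-1, 3 of VTRNA1-2 and 19 or 20 of VTRNA1-3. The ratios between the 2 vault RNAs of 88 nt were ratios of small whole numbers too, at 1.50 in RiboMinus replicate 1 (3 to 2) and 4.00 in replicate 1 labelled DXO-KO (4 to 1).

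**Figure D2:**
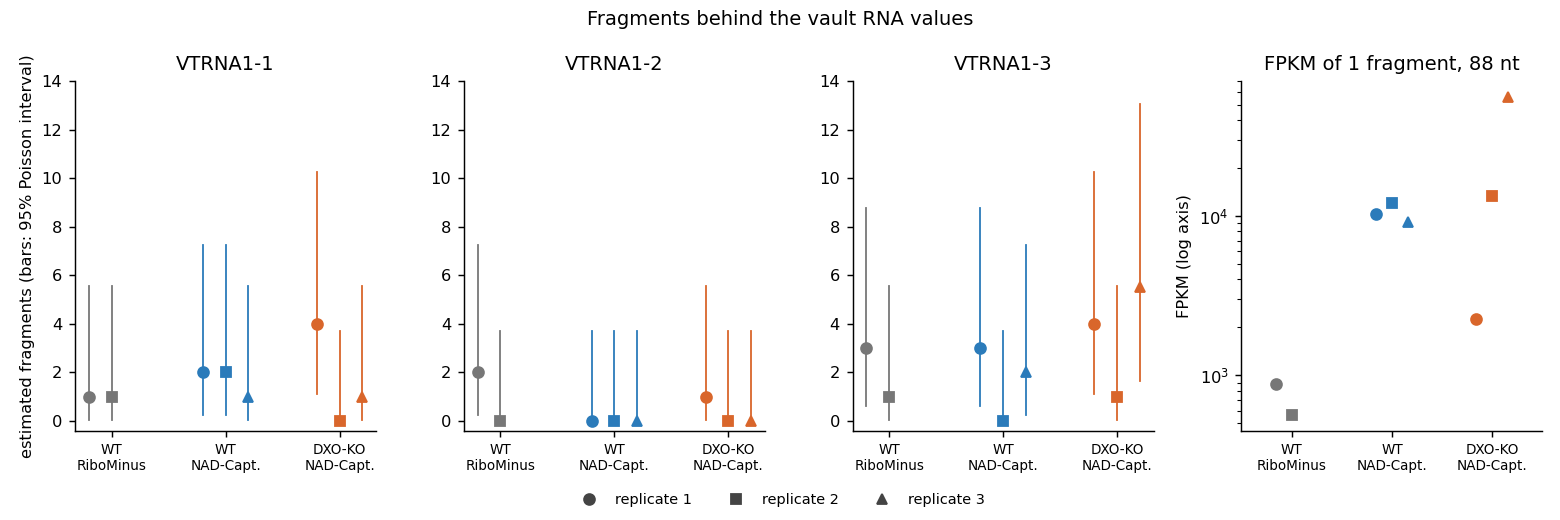
Estimated fragments behind each vault RNA value (left 3 panels, 1 symbol per library, bars are 95% Poisson intervals that cover counting error only) and the FPKM that 1 fragment is worth at 88 nt (right panel, log axis). No value exceeds 6 fragments, and the worth of 1 fragment runs from 566 FPKM in RiboMinus replicate 2 to 55903 FPKM in replicate 3 labelled DXO-KO.

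Related to depth, VTRNA1-1 came to 0.0933 and 0.114 fragments for each 1000000 fragments of library depth in RiboMinus (95% Poisson intervals 0.00236 to 0.520 and 0.00288 to 0.635). At the same unit it came to 10.4, 12.1 and 4.01 in WT NAD-Capture, with intervals of 1.26 to 37.5, 1.46 to 43.6 and 0.101 to 22.3. The intervals of WT NAD-Capture replicates 1 and 2 lay above both RiboMinus intervals and that of replicate 3 did not. In that unit VTRNA1-3 came to 0.280 and 0.114 in RiboMinus, to 15.6, 0 and 8.01 in captured WT libraries, and to 4.95, 7.23 and 62.3 to 74.8 in those labelled DXO-KO. The interval of replicate 3 labelled DXO-KO, 20.2 to 163, overlapped that of WT NAD-Capture replicate 1, 3.215 to 45.6. PCR copies are not independent molecules, so the intervals cover counting error only.

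The comparison of the NAD-Capture groups bears on the removal of NAD caps by DXO that the title names. None of the 5 RNAs differed between the libraries labelled DXO-KO and WT NAD-Capture beyond the spread of replicates. With limma on log2(FPKM + 1), adjusted by Benjamini-Hochberg over 25004 rows, 0 of the 5 passed an adjusted p of 0.05 and 0 had an unadjusted p under 0.05, as 2292 rows (9.17%) did. The background was 8 of 25004 rows called, or 0.032% (0.024% higher and 0.008% lower), so few rows of any kind passed. Groups did not overlap for 7.57% of rows on the higher side and 8.53% on the lower side, and overlapped for all 5 RNAs. The log2 difference (labelled DXO-KO minus WT) was 0.63 for RMRP (SE 1.84, 95% interval -3.66 to 4.92, limma adjusted p = 0.909) and 0.69 for RPPH1 (SE 1.56, interval -2.96 to 4.33, limma adjusted p = 0.875). These intervals reach several log2 units to either side of 0, so a change of that size is not shown to be absent. The sign of the RMRP difference rested on 1 library: without replicate 3 labelled DXO-KO it was -0.042. VTRNA1-1 stood at a log2 difference of -3.78 (SE 3.25) and VTRNA1-3 at 5.35 (SE 3.78), each with a limma adjusted p of 0.646; both lean on a value listed at 0, and without the library that lists it VTRNA1-1 came to 0.52 (replicate 2 labelled DXO-KO left out) and VTRNA1-3 to 0.49 (WT NAD-Capture replicate 2 left out). No fold is given for VTRNA1-2, which was listed at 0 in all WT NAD-Capture libraries (limma adjusted p = 0.646).

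Between WT NAD-Capture and WT RiboMinus, RPPH1 and VTRNA1-1 were called higher after capture and RMRP was not called. Of 24777 rows, 6363 were called, or 25.7% (12.6% higher and 13.1% lower), against 2 of the 5 RNAs, both higher; 3 of the 5 had an unadjusted p under 0.05, as 8456 of all rows (34.1%) did. The split of the calls moved with the scaling, from 3119 higher and 3244 lower to 2231 and 4000 with each library centred on its median row and to 2878 and 1358 with FPKM summed per gene symbol. Groups did not overlap, on the higher side, for RMRP, RPPH1 and VTRNA1-1; that was so for 21.3% of all rows, and 26.5% did not overlap on the lower side. The log2 difference (NAD-Capture minus RiboMinus) of RPPH1 was 1.61 (SE 0.371, 3.05-fold, limma adjusted p = 0.0456), beside a median of 0.24 over all rows. That call did not hold without either RiboMinus library (limma adjusted p = 0.797 without replicate 1 and 0.795 without replicate 2), without WT NAD-Capture replicate 1 (0.0955), or with each library centred on its median row (1.14, limma adjusted p = 0.135). RMRP differed by 1.74 (SE 0.466, 3.34-fold, limma adjusted p = 0.0682) and was called once WT NAD-Capture replicate 3 was left out (2.12, limma adjusted p = 0.0179). The 2 RNAs thus gave differences of like size on either side of the threshold.

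VTRNA1-1 differed by 4.38 on the log2 scale between WT NAD-Capture and WT RiboMinus (SE 0.596, 20.8-fold, limma adjusted p = 0.0112). Behind this call stand 1 and 1 fragment in RiboMinus and 2, 2 and 1 in captured WT libraries. An FPKM of 1 fragment at 98 nt was itself 326 and 208 in RiboMinus and 3622, 4231 and 2622 in captured WT libraries, and limma does not take that coarse step into account. The call did not hold without RiboMinus replicate 1 (4.71, limma adjusted p = 0.111) or replicate 2 (4.05, limma adjusted p = 0.142). VTRNA1-3 stood at -0.56 (SE 5.39, limma adjusted p = 0.949), and at 0.54 without RiboMinus replicate 1 and 4.29 without WT NAD-Capture replicate 2, the library that lists it at 0. VTRNA1-2 was listed at 0 in the whole WT NAD-Capture group and gets no fold (limma adjusted p = 0.359); without RiboMinus replicate 2 the adjusted p was 0.00270, on the 2 fragments of RiboMinus replicate 1 alone.

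The libraries labelled DXO-KO were set against the same 2 RiboMinus libraries, so this comparison is not independent of the last. Here 3148 of 22429 rows, or 14%, were called (4.41% higher and 9.63% lower), and 0 of the 5 RNAs by limma, with 0 at an unadjusted p under 0.05, as 5363 rows (23.9%) were. The 989 higher and 2159 lower calls became 374 higher and 136 lower with FPKM summed per gene symbol. RMRP, RPPH1 and VTRNA1-3 did not overlap RiboMinus on the higher side, as 17% of all rows did, with 23.1% on the lower side. The log2 difference was 2.37 for RMRP (SE 1.05, limma adjusted p = 0.296), 2.29 for RPPH1 (SE 0.913, limma adjusted p = 0.244) and 4.78 for VTRNA1-3 (SE 1.89, limma adjusted p = 0.240). Without replicate 1 labelled DXO-KO, the deepest NAD-Capture library, RMRP (3.16, limma adjusted p = 0.0294) and RPPH1 (2.99, limma adjusted p = 0.0144) passed. VTRNA1-1 stood at 0.60 (SE 4.78) and VTRNA1-2 at -1.69 (SE 5.28), each on libraries that list it at 0, and their sign turned with single libraries.

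**Figure D3:**
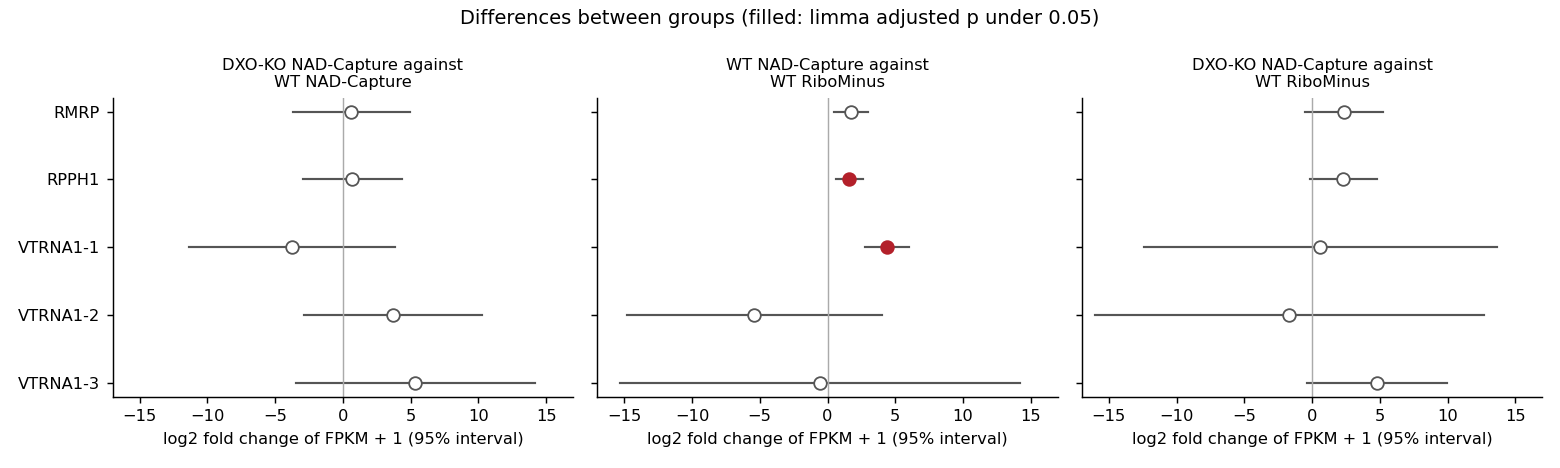
Log2 difference of FPKM + 1 for the 5 RNAs in the 3 comparisons, with 95% intervals from limma; filled symbols passed a limma adjusted p of 0.05. RPPH1 and VTRNA1-1 are filled between WT NAD-Capture and WT RiboMinus, and the interval of VTRNA1-3 runs from -15.35 to 14.22 in that comparison.

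Because the scaling between libraries moves every FPKM of a library together, RMRP and RPPH1 were also set within each library. RMRP took 12.2% and 12.1% of the summed FPKM in RiboMinus, 14.5%, 16.96% and 11.3% in captured WT libraries, and 8.99%, 4.69% and 12.5% in those labelled DXO-KO. RPPH1 took 8.21% and 8.45% in RiboMinus, 8.39%, 9.91% and 8.16% in captured WT libraries, and 6.57%, 3.34% and 6.55% in those labelled DXO-KO. The share of RPPH1 was thus lower in all 3 libraries labelled DXO-KO than in any other library, while the shares of RMRP overlapped. How many other rows separate by share in this way was not counted, so the separation is not shown to be particular to RPPH1. The mean share of RPPH1 was 5.49% ± 1.86 (SD, n = 3) in the group labelled DXO-KO and 8.82% ± 0.953 (SD, n = 3) in WT NAD-Capture, a difference of -3.34 percentage points (two-sided exact permutation test, p = 0.1, the smallest that 3 against 3 libraries can give). For RMRP the means were 8.73% ± 3.92 and 14.3% ± 2.83, a difference of -5.54 points (two-sided exact permutation test, p = 0.2).

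The shares depended on whether snoRNA rows were in the sum. With the 379 snoRNA and scaRNA rows left out of the sum, RMRP took 13.6% and 13.8% in RiboMinus, 19.3%, 23.1% and 14.2% in captured WT libraries, and 17.2%, 26.7% and 28.97% in those labelled DXO-KO. RPPH1 then took 9.13% and 9.67%, then 11.1%, 13.5% and 10.2%, then 12.6%, 19.0% and 15.2%. The sign of both differences turned: the group labelled DXO-KO was higher by 5.42 points for RMRP (two-sided exact permutation test, p = 0.3) and by 3.96 points for RPPH1 (p = 0.2 by the same exact test), and the NAD-Capture groups overlapped for both. No direction of RMRP or RPPH1 between the NAD-Capture groups held over these 2 denominators.

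**Figure D4:**
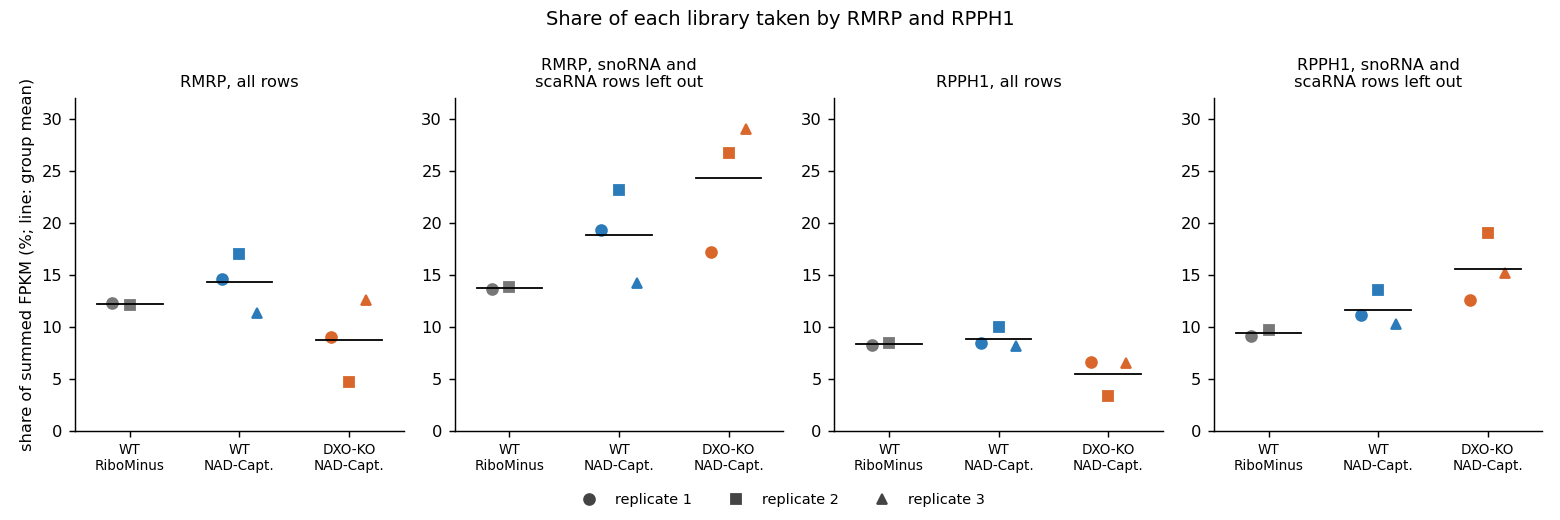
Share of the summed FPKM of each library taken by RMRP and RPPH1, over all rows and with the snoRNA and scaRNA rows left out (1 symbol per library, lines are group means). With all rows the libraries labelled DXO-KO, at 3.34% to 6.57%, lie below the WT NAD-Capture libraries for RPPH1; without the snoRNA and scaRNA rows their mean is above that of WT NAD-Capture for both RNAs.

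A further measure, chosen after seeing the data, used scaRNAs of like length as the reference. scaRNAs guide the modification of spliceosomal RNAs in Cajal bodies. RMRP was divided by the sum of SCARNA5, SCARNA6, SCARNA12 and SCARNA13 (266 to 278 nt), and the ratio was 40.7 and 46.2 in RiboMinus, 114, 186 and 71.6 in captured WT libraries, and 21.1, 59.3 and 92.0 in those labelled DXO-KO. RPPH1 was divided by the sum of SCARNA7 and SCARNA10 (330 nt), and the ratio was 45.6 and 51.7 in RiboMinus, 210, 217 and 164 in captured WT libraries, and 45.9, 72.0 and 70.6 in those labelled DXO-KO. WT NAD-Capture stood apart for RPPH1, above every other library, whereas replicate 1 labelled DXO-KO lay within the RiboMinus range. How many other ratios separate in this way was not counted. The sum of SCARNA7 and SCARNA10 was 637, 963 and 570 FPKM in captured WT libraries and 1822, 3972 and 6431 in those labelled DXO-KO. This reference thus separated the NAD-Capture groups without RPPH1, whose FPKM overlapped. Of single rows, 7.57% were higher without overlap in the libraries labelled DXO-KO. The log2 ratio of RPPH1 differed by -1.67 between the group labelled DXO-KO and WT NAD-Capture (5.94 ± 0.37 against 7.61 ± 0.22, SD, n = 3 each, two-sided exact permutation test, p = 0.1, the smallest possible), and that of RMRP by -1.24 (5.60 ± 1.09 against 6.84 ± 0.69, p = 0.2 by the same exact test). Such a ratio shows unequal change of RPPH1 and the scaRNAs, not which of them changed.

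RMRP and RPPH1 kept close to each other. The ratio of RMRP to RPPH1 FPKM was 1.49 and 1.43 in RiboMinus, 1.73, 1.71 and 1.39 in captured WT libraries, and 1.37, 1.40 and 1.91 in those labelled DXO-KO, so that it overlapped between the NAD-Capture groups. Across the 8 libraries the Pearson correlation of their log2 levels was 0.994. Among 8177 rows above 0 in every library, the rows most like RMRP, apart from RPPH1, were those of the ribosomal protein pseudogene RPS18P9 (0.996), of the ribosomal protein genes RPS3A (0.988) and RPL5 (0.986), and of PHLDA1 (0.983). Those most like RPPH1, apart from RMRP, were RPS18P9 (0.989), the elongin C gene ELOC (0.987) and the ribosomal protein genes RPL27 (0.986) and RPS23 (0.983). All these rows share the scaling of each library, which differs widely between the groups, and the correlations are given as a description.

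**Figure D5:**
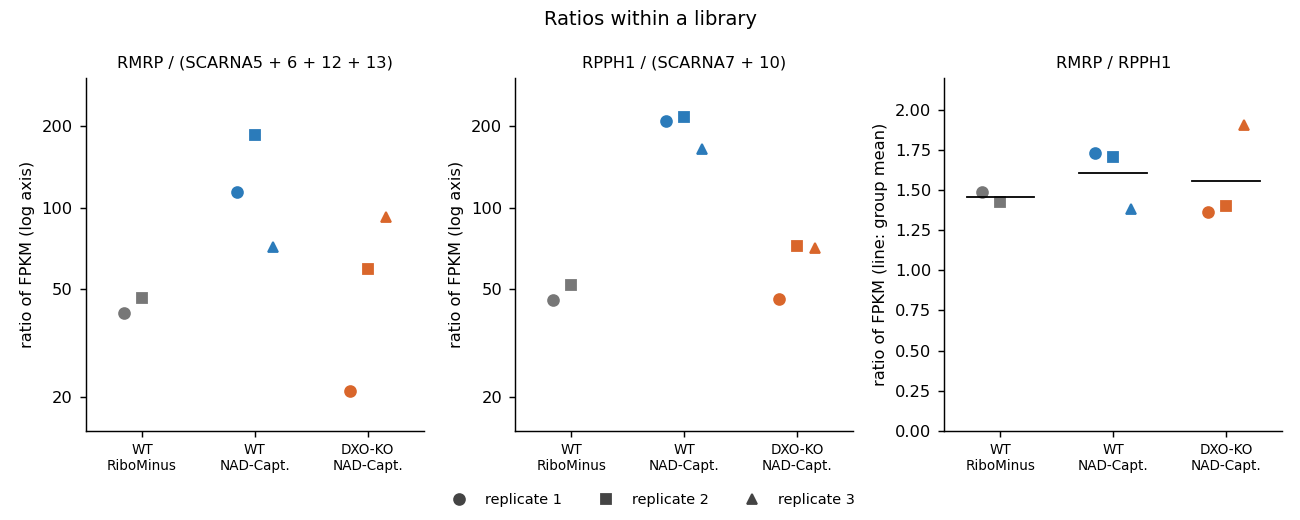
Ratios of FPKM within a library: RMRP and RPPH1 to the sum of scaRNAs of like length (log axes) and RMRP to RPPH1 (linear axis, lines are group means), 1 symbol per library. WT NAD-Capture lies highest for RPPH1 against scaRNAs, at 164 to 217, while RMRP to RPPH1 stays between 1.37 and 1.91.

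The protein partners of RNase MRP and RNase P showed no called row between the NAD-Capture groups. All 11 genes of the list (POP1, POP4, POP5, POP7, RPP14, RPP21, RPP25, RPP25L, RPP30, RPP38 and RPP40) are in the table. Of their rows, 17 were tested between the libraries labelled DXO-KO and WT NAD-Capture. By limma 0 passed and 2 had an unadjusted p under 0.05, beside 0.032% and 9.17% of all rows. Their median log2 difference was -0.26 beside -0.06 over all rows. Between WT NAD-Capture and RiboMinus, 1 of 19 rows passed on the higher side and 4 on the lower side, 26.3% in all against 25.7% of all rows. RPP25, an RNA-binding subunit, was the called gene with a single tested row: it stood at 35.9 and 36.7 FPKM in RiboMinus, 12.2, 8.50 and 16.96 in captured WT libraries, and 4.66, 0 and 0 in those labelled DXO-KO. From RiboMinus to WT NAD-Capture RPP25 fell by 1.51 on the log2 scale (SE 0.334, limma adjusted p = 0.0406). An FPKM of 1 fragment on 1 kb was 4.01 to 6.04 in captured WT libraries, so values of this size rest on few fragments there. RPP40 passed in both directions, with NM_006638 lower and NM_001286133 higher, and POP1 and RPP38 passed on the lower side for a single isoform each (NM_001145860 and NM_001097590). With FPKM summed per gene symbol, which adds the isoforms of a gene, 3 of 10 genes (30.0%) were called in WT NAD-Capture against RiboMinus by limma, all lower, beside 24.5% of 17292 genes. They were RPP25, POP1 (log2 difference -2.46, SE 0.528, limma adjusted p = 0.0269) and RPP40 (-0.88, SE 0.231, limma adjusted p = 0.0460); RPP38 was at -1.99 and not called (limma adjusted p = 0.0731). Between the libraries labelled DXO-KO and RiboMinus, 2 of 18 rows passed (11.1%, below the 14% of all rows), both lower (POP1 and RPP40). With summed FPKM, 0 of 10 genes passed by limma, beside 3.34% of 15283 genes. An unadjusted p under 0.05 was seen for 4 of the 10, beside 21.2% of all genes. The most abundant members were POP7, the partner of RPP25 in the enzyme, at 17.1 to 80.5 FPKM, POP5, a core subunit, at 0 to 57.5 FPKM, and RPP25L at 0 to 54.1 FPKM, none of them called in any comparison.

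Of the vault proteins, MVP, PARP4 and TEP1, no row passed in any comparison (0 of 5, 0 of 5 and 0 of 3 rows by limma, with 0, 0 and 1 at an unadjusted p under 0.05). In the same order, 0.032%, 25.7% and 14% of all rows were called and 9.17%, 34.1% and 23.9% had an unadjusted p under 0.05. MVP, the shell protein of the vault, has 4 rows, and their sum was 0.673 and 0.630 FPKM in RiboMinus, 19.8, 25.6 and 23.6 in captured WT libraries, and 2.11, 6.12 and 10.5 in those labelled DXO-KO. The 3 groups did not overlap, but the share of all gene sums that separate in this way was not counted. Of single rows, 21.3% were higher without overlap in WT NAD-Capture than in RiboMinus. For the libraries labelled DXO-KO, 17% were higher than RiboMinus and 8.53% lower than WT NAD-Capture without overlap. With FPKM summed per gene symbol, MVP was called higher in WT NAD-Capture than in RiboMinus (log2 difference 3.85, SE 0.261, 14.5-fold, limma adjusted p = 0.00234), the call of 1 of 3 vault protein genes (33.3%) beside 24.5% of all genes. It was not called between the NAD-Capture groups (-1.91, SE 0.531, limma adjusted p = 0.166), where 0.0333% of 18040 genes were. PARP4, the ADP-ribosyltransferase of the vault, lay between 2.33 and 15.3 FPKM, and TEP1, its RNA-binding protein, between 0.504 and 2.94 FPKM.

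Of 5 further proteins that bind or process vault RNAs or other polymerase III transcripts, 0 of 12 rows passed by limma between the NAD-Capture groups. Of these rows, 3 had an unadjusted p under 0.05, beside 9.17% of all rows. Between WT NAD-Capture and RiboMinus 3 of 11 rows passed (27.3%, near the 25.7% of all rows), all lower. Between the libraries labelled DXO-KO and RiboMinus 2 of 13 rows passed (15.4%, near the 14% of all rows). DUSP11 removes phosphates from the 5′ triphosphate of polymerase III transcripts and has 1 tested row. It stood at 21.7 and 21.0 FPKM in RiboMinus, 7.13, 4.15 and 5.52 in captured WT libraries, and 15.3, 24.8 and 34.6 in those labelled DXO-KO. WT NAD-Capture thus lay below all other libraries. Of all rows, 26.5% were lower without overlap in WT NAD-Capture than in RiboMinus. Between the NAD-Capture groups, 7.57% were higher without overlap in the libraries labelled DXO-KO. From RiboMinus to WT NAD-Capture DUSP11 fell by 1.78 on the log2 scale (SE 0.276, limma adjusted p = 0.0152). With 1 fragment on 1 kb worth 4.01 to 6.04 FPKM in captured WT libraries, its values there rest on few fragments. SSB, the La protein that binds the T-run end of new polymerase III transcripts, was not called and its summed level ran from 107 to 228 FPKM. SRSF2, which binds VTRNA1-1, had a summed level of 58.2 to 239 FPKM and no called row, but its summed FPKM was called lower in WT NAD-Capture (-1.61, SE 0.262, limma adjusted p = 0.0128) and in the libraries labelled DXO-KO (-1.50, SE 0.247, limma adjusted p = 0.0440), each against RiboMinus. NSUN2, which methylates vault RNAs, passed on the lower side for NM_017755 in both comparisons with RiboMinus, and RO60, the Ro protein of Y RNAs, for NM_001042370 lower after WT NAD-Capture and for NM_001173524 higher in the libraries labelled DXO-KO against RiboMinus. With FPKM summed, NSUN2 was still called lower in WT NAD-Capture than in RiboMinus (-1.57, SE 0.186, limma adjusted p = 0.00554) and not in the libraries labelled DXO-KO (-1.76, SE 0.553, limma adjusted p = 0.152), and RO60 was called in neither (-0.03 and 1.30, limma adjusted p = 0.938 and 0.0528). Summed calls thus stood at 3 of 5 genes after WT NAD-Capture (DUSP11, NSUN2 and SRSF2) and at 1 of 5 in the libraries labelled DXO-KO, beside 24.5% and 3.34% of all genes.

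Few other polymerase III RNAs could be set beside the 5. Of 19 listed, 6 had a row in the table and 1 could be tested, RNU6ATAC, the U6atac RNA of the minor spliceosome. It stood at 827 and 807.5 FPKM in RiboMinus, 1254, 705 and 0 in captured WT libraries, and 1008, 1518 and 4255 in those labelled DXO-KO, and was called in none of the 3 comparisons by limma (adjusted p = 0.575 between the NAD-Capture groups), nor did it reach an unadjusted p of 0.05.

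The polymerase III machinery gave 0 called rows of 51 between the NAD-Capture groups by limma. Of these rows, 4 had an unadjusted p under 0.05, beside 9.17% of all rows. The median log2 difference was -0.07 beside -0.06 over all rows. Between WT NAD-Capture and RiboMinus, 3 of 49 rows passed on the higher side and 9 on the lower side, 24.5% in all, near the 25.7% of all rows. POLR1D, a subunit shared by polymerases I and III, had its row NM_015972 at 77.1 and 78.0 FPKM in RiboMinus and at 32.2, 28.0 and 30.9 in captured WT libraries, a log2 difference of -1.33 (SE 0.155, limma adjusted p = 0.00779). POLR3A, the largest subunit of polymerase III, was called lower (28.8 and 29.3 FPKM against 13.1, 15.3 and 13.99, a log2 difference of -0.99). GTF3C3 (-1.79) and GTF3C4 (-1.37) of the factor TFIIIC, which recognises promoter boxes inside genes, were called lower too. The GTF3C3 row was at 6.38, 4.91 and 6.62 FPKM in captured WT libraries. An FPKM of 1 fragment on 1 kb was 4.01 to 6.04 there, so these values rest on few fragments. The other lower rows were GTF3C2 NM_001521 (-2.96), CRCP NM_014478 (-4.25), POLR3C NM_006468 (-4.33), POLR3B NM_018082 (-4.34) and POLR3E NM_018119 (-4.72), all at 0.00251 FPKM or lower in captured WT libraries. Summed over its rows, CRCP was not lower, at 17.7 and 19.7 FPKM in RiboMinus and 23.4, 25.5 and 30.6 in captured WT libraries. The sums of GTF3C2 (32.4 and 31.4 against 11.4, 14.9 and 16.6) and POLR3E (27.1 and 27.6 against 12.2, 8.76 and 5.96) were lower. On the higher side, POLR3B NM_001160708 (2.63) and POLR3C NM_001303456 (2.75) were at or near 0 in RiboMinus, and summed per symbol both genes were called lower (-1.70 and -1.58, limma adjusted p = 0.0453 and 0.0382). SNAPC4, of the factor that recognises promoters of the RMRP and RPPH1 kind, was the third, at 8.40 and 8.19 FPKM in RiboMinus and 23.6, 17.9 and 21.1 in captured WT libraries (1.22, SE 0.208, limma adjusted p = 0.0197). Between the libraries labelled DXO-KO and RiboMinus, 1 of 48 rows passed on the higher side, POLR3GL, a polymerase III subunit. It stood at 17.3 and 16.3 FPKM in RiboMinus and 92.1, 123 and 103.6 in those labelled DXO-KO (2.58, SE 0.223, limma adjusted p = 0.0101). Captured WT libraries held POLR3GL at 68.0, 30.4 and 64.6 FPKM, also above RiboMinus. On the lower side 2 passed, GTF3C2 NM_001521 (-2.96) and POLR3E NM_018119 (-4.72). The 3 called rows are 6.25% of the rows, below the 14% of all rows. With FPKM summed, 3 genes of 30 were called higher and 8 lower in WT NAD-Capture against RiboMinus, and 1 each way for DXO-KO-labelled libraries against RiboMinus, or 36.7% and 6.67% beside 24.5% and 3.34% of all genes. POLR3K, a further polymerase III subunit and among the most abundant of the list, was at 0 to 82.2 FPKM and was not called.

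The protein-coding neighbours of the 2 long RNAs were low beside them. PARP2, which neighbours RPPH1 in the RefSeq annotation, had a summed level of 10.9 to 52.9 FPKM, and CCDC107, which neighbours RMRP, stood at 5.87 and 4.24 FPKM in RiboMinus and was listed at 0 in every NAD-Capture library. An FPKM of 1 fragment on 1 kb was 1.24 to 12.5 in NAD-Capture, so a level like that of RiboMinus would give few fragments there, if any.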

How the data were processed

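RNA of 8 HEK293T libraries was measured as FPKM per RefSeq transcript and library, in a table the authors deposited. Per the submitters' processing notes, TopHat2 2.1.1, Bowtie2 2.2.8.0 and Cuffdiff were used with hg19; the annotation, the scaling between libraries and the treatment of fragments that fit several rows are not given in the sources used here. Symbols came from a RefSeq table of GRCh38.p14 and cover 49500 of 53216 rows (93.0%); no coordinates are given, since the builds differ. Of the 5 members, 0 matched the promoter table used here. Sequences are from GENCODE release 29.

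Samples were grouped by their titles. The test between groups was that of limma 3.58.1 (R 4.3.3; lmFit and trended eBayes) on log2(FPKM + 1), a scale that understates the change of low rows, for rows whose FPKM averaged 1 or more over both groups, two-sided, with Benjamini-Hochberg adjustment over all of them and a threshold of 0.05. For shares, an exact permutation test was used (two-sided, scipy 1.17.1). FPKM are not counts, so no count model was fitted. The scripts were tested on simulated data.

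The FPKM of 1 fragment was estimated, after seeing the data, from the steps of low values. Of 531 short rows of 86 to 104 nt, all those above 0 in a library were used. A likelihood fit with whole multiples up to 8 gave the step at 98 nt and its slope with length. That slope gave the step at 88 nt. A tolerance of 10% served only to tally values near a whole multiple afterwards. The long-row step came from 7294 rows of 1500 to 6000 nt, with the length less 200 nt. Of the low values of the long rows, 71.9% to 74.2% lay within 4% of a whole multiple. The short-row estimate rests on 8 to 17 rows a library, and the vault RNA rows were not left out of them.

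Alternatives were another pseudocount, no filter on low values, centring, FPKM added up over the rows of a gene, a fit over all 8 libraries, a replicate block, other denominators and leaving out each library. The members and lists were chosen with earlier results of these data known. The genes named are the 5 members, the 3 most abundant of each list and those past the threshold, DXO, the 5 rows most like RMRP and RPPH1, and the top row of each library; MVP, PARP2 and CCDC107 are given as sums over their rows.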

Additional observations from a re-analysis of the deposited data

How the results depend on the processing

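Of the 5 RNAs, none passed between the NAD-Capture groups under any alternative (limma adjusted p of RMRP and RPPH1 between 0.590 and 1.00). The count of called rows, 8 there (6 higher and 2 lower; 6 and 1 with centred libraries, 3 and 3 with sums per symbol), was 5 with a pseudocount of 0.1, 51 without the filter on low values, 141 with all 8 libraries in a common fit, and 0 to 15 when 1 library was left out. Between WT NAD-Capture and RiboMinus the 6363 calls became 4236 with sums per symbol (2878 higher and 1358 lower, against 3119 and 3244; 2231 and 4000 with centred libraries), 3962 with all 8 libraries, and 2639 to 8302 with a library left out. Against RiboMinus the 3148 calls of the libraries labelled DXO-KO became 5320 without the filter, 510 with sums per symbol (374 higher and 136 lower, against 989 and 2159), and 1625 to 6530 with a library left out. A fit with the replicate number as a block called 0, 0 and 0 rows in the 3 comparisons; numbers do not pair the libraries (same-number correlations of -0.0302 to 0.00688), and a block leaves few degrees of freedom. With this replicate block RPPH1 was at 1.88 (limma adjusted p = 0.0850) and VTRNA1-1 at 4.88 (limma adjusted p = 0.0801) between WT NAD-Capture and RiboMinus, and between the libraries labelled DXO-KO and RiboMinus VTRNA1-1 turned to -2.29 and VTRNA1-2 to 0.17.

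The call of RPPH1 in WT NAD-Capture against RiboMinus was lost at 1.61 without the filter (limma adjusted p = 0.924), with sums per symbol (0.106) and with all 8 libraries (0.290), and at 1.14 with centred libraries; that of VTRNA1-1 was lost at 4.38 with all 8 libraries (0.490). The causes were not tested. Leaving out single libraries gave, between the NAD-Capture groups, -0.042 to 1.42 for RMRP, 0.17 to 1.39 for RPPH1, -6.67 to 0.52 for VTRNA1-1, 3.71 to 5.57 for VTRNA1-2 and 0.49 to 8.00 for VTRNA1-3. For WT NAD-Capture against RiboMinus it gave 1.39 to 2.12 for RMRP, 1.31 to 1.88 for RPPH1, 4.05 to 4.88 for VTRNA1-1, -10.80 to -5.40 for VTRNA1-2 and -3.22 to 4.29 for VTRNA1-3, which also turned to 0.54 without RiboMinus replicate 1. For the libraries labelled DXO-KO against RiboMinus it gave 1.70 to 3.16 for RMRP, 1.77 to 2.99 for RPPH1, -2.29 to 4.90 for VTRNA1-1, -7.09 to 3.71 for VTRNA1-2 and 3.20 to 5.89 for VTRNA1-3. There VTRNA1-1 turned to -0.51 with a pseudocount of 0.1, to -0.83 without replicate 1 labelled DXO-KO and to -2.29 without replicate 3, and VTRNA1-2 turned to 0.17 without replicate 2 or 3 labelled DXO-KO. Between the NAD-Capture groups VTRNA1-2 could not be tested without replicate 1 labelled DXO-KO, the only library there that lists it above 0. For WT NAD-Capture against RiboMinus the same held without RiboMinus replicate 1. The ranges of VTRNA1-2 in these comparisons therefore do not show that its sign is steady. A lone RiboMinus library is assumed to vary like the other group. Differences of shares ran from -7.43 to -3.52 points for RMRP and from -3.88 to -2.26 for RPPH1 with a library left out, and turned to 5.42 and 3.96 points without the snoRNA and scaRNA rows; without the top other row of each library they were -3.14 and -2.26. Depth limits the vault RNAs, which rest on 0 to 6 fragments a library.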
